A study of Danio rerio with 11 samples.

Results

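Mutant tails of 1 zebrafish line were set against wildtype tails of another: 3 libraries labelled 23095 mutant (replicates 1, 2 and 4) against 3 labelled 36433 wildtype (replicates 1, 2 and 3). They are 6 of the 11 libraries of the series, assigned to the groups by their labels. The embryos were 24 hours post fertilisation, the tissue was the tail behind the yolk sac, and each library came from 5 pooled tails. The mutated gene is lsd1, now named kdm1a. The labels give neither the lesion of each line nor whether the pools came from separate clutches, so that p-values measure only the spread between these pools. The wildtypes of this comparison belong to the other line. Every difference below is therefore that of the mutation and of the line together, and the 2 cannot be told apart in these 6 libraries. The remaining 5 libraries, 3 labelled 36433 mutant and 2 labelled 23095 wildtype, make the opposite cross, in which the mutation stays on the same side and the line changes sides.

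Lsd1 is an enzyme that removes methyl groups from lysines of histone H3 and works mostly as a repressor of transcription, in complexes with CoREST-type proteins and histone deacetylases. Repressors that carry a short N-terminal SNAG domain, among them the Gfi1 and Snail families, bring these complexes to DNA. In vertebrate embryos Lsd1 is best known for its part in blood formation, which includes the rise of stem and progenitor cells from endothelium. Whether the red cells and leukocytes of these tails came from such cells was not tested.

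The kdm1a transcript itself (KDM1A in the symbol table, ENSDARG00000060679) gave no call between the 23095 mutants and the 36433 wildtypes. It was at 130, 170 and 130 CPM, the normalised read count scaled to the size of each library, in the mutants and at 162, 155 and 135 CPM in the wildtypes, and the 2 groups overlapped. The log2 fold change was -0.07 (standard error 0.14, adjusted p = 0.791). Here and below, adjusted p-values come from the quasi-likelihood test of edgeR and are adjusted by the Benjamini-Hochberg procedure over all tested genes. A count of transcripts says nothing of the protein made from them, so this value is no check of the label of the 23095 mutants. Among 50 tested genes next to kdm1a in the RefSeq gene order, 25 on each side, 3 were called (6%), close to the 6.71% of all genes.

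Total counts were 15799984, 8204459 and 16535501 in the 23095 mutants and 14785707, 15234507 and 16649352 in the 36433 wildtypes, so that 23095 mutant replicate 2 had the fewest reads. Genes of the posterior axis were present in all 6 libraries, with a summed level of 593 to 893 CPM for 25 posterior hox genes and 1130 to 1410 CPM for 44 tailbud and presomitic mesoderm genes, against 93.4 to 134 CPM for 13 genes of head structures. Among the wildtypes, 36433 wildtype replicate 1 stood apart from replicates 2 and 3. Its summed level of epidermal genes was 26200 CPM, against 55700 and 50400 CPM in replicates 2 and 3 and 25400 to 26000 CPM in the 23095 mutants. Across genes its log2 CPM correlated more closely with 36433 mutant replicates 1, 2 and 3 (Pearson's r = 0.986, 0.982 and 0.982). With replicates 2 and 3 of its own group r was 0.976 and 0.974. Its level of GFI1, which was 12.8 CPM or more in every mutant library of the series, was 0.513 CPM, on the side of its label. GFI1 is itself among the genes called from these libraries, so that its level is no independent check of that label. Of kdm1a, not called in this comparison, 36433 wildtype replicate 1 held 2524 reads, against 2306 and 2115 in replicates 2 and 3. The 36433 mutants held 472, 546 and 481 reads of it, so that kdm1a too was on the side of the label.

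Of 20886 genes tested, 1401 (6.71%) differed, 677 higher (3.24%) and 724 lower (3.47%) in the 23095 mutants. The median size of a called difference was 1.13 on the log2 scale, and it was over 2 for 310 genes, 133 higher and 177 lower. In 1353 of the called genes no mutant library lay within the range of the wildtypes or the reverse, as was the case for 22.5% of all genes tested. The called share rose with the level of the gene, from 4.98% under 1 CPM to 7.88% over 100 CPM, while the median called difference was 3.43 and 0.88 in these bands. Leaving out 36433 wildtype replicate 1 raised the count to 3356 of 20782 genes tested. Leaving out replicate 2 or 3 of that group lowered it to 378 of 20825 or 456 of 20820. Without 23095 mutant replicate 4 the count was 784 of 20782. Counts of list members given below for such fits stand against these totals. A percentage beside a list is the share of its tested members called in the main fit, to be set against 6.71%. Of 164 called genes that are named by rule or stand in a gene list, 66 kept their call in all 11 fits that each left out 1 library, and 98 lost it in at least 1. With only the 6 libraries of the comparison in the fit 372 genes were called. Of the 66, 63 were among them, and msx3, erbb3b and 1 identifier of Metazoa_SRP were not.

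**Figure D1:**
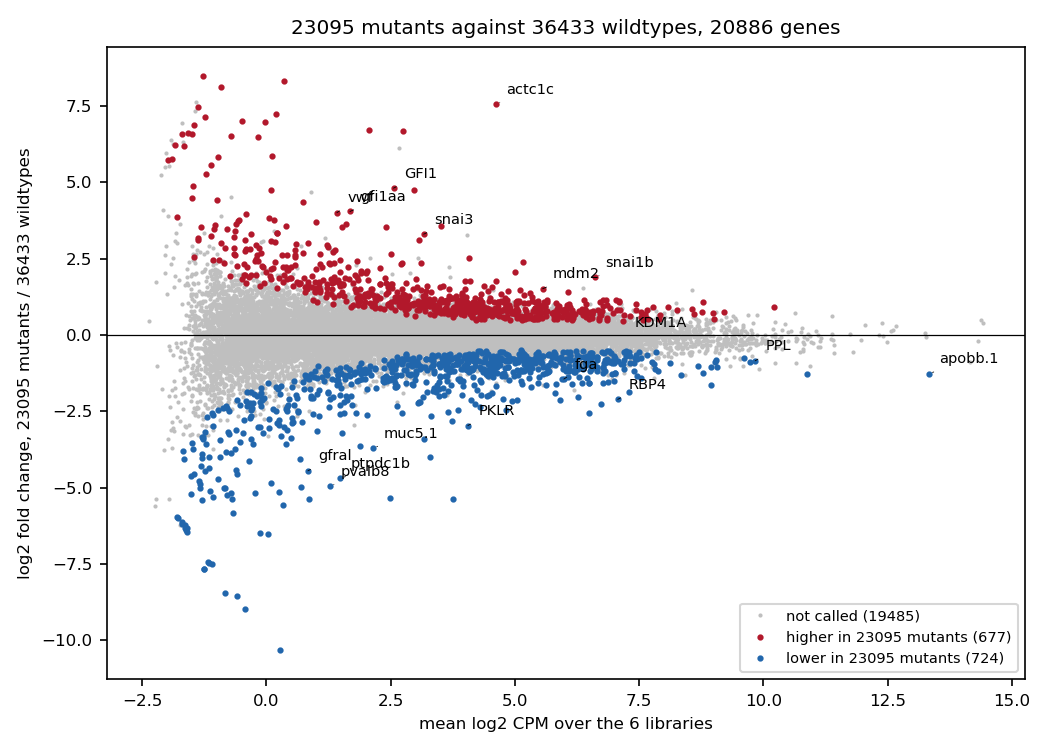
Log2 fold change of each tested gene (vertical axis, 23095 mutants over 36433 wildtypes) against its mean log2 CPM over the 6 libraries (horizontal axis). Red points are the 677 genes higher and blue points the 724 lower in the 23095 mutants, grey points are not called; the widest fitted values lie at low levels, where 1 group has few or no reads.

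Of 14 SNAG-domain repressors 13 passed the filter on low counts. Of these 5 were higher and none lower (38.5%, against 6.71% of all genes). The median log2 fold change was 0.59, against 0.01 over all genes. These 5 are the genes of the Gfi1 and Snail families described next. GFI1 (ENSDARG00000044457), which encodes a repressor needed in blood cell development, was at 38.4, 19.3 and 35.7 CPM in the mutants, against 0.513, 1.34 and 1.47 CPM in the wildtypes. The lowest mutant, replicate 2, lay far above the highest wildtype, replicate 3. The log2 fold change was 4.81 (standard error 0.38, adjusted p = 3.21e-05). Its paralog gfi1aa was at 13.5, 6.61 and 17.3 CPM against 0.769, 0.538 and 0.96 CPM (log2 fold change 4.05, standard error 0.45, adjusted p = 0.000699). For both genes 23095 mutant replicate 2 was the lowest of the mutants.

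The Snail proteins repress epithelial genes in crest and mesoderm. The transcript of snai3 was at 27.3, 22.5 and 33.0 CPM in the mutants, against 2.69, 2.69 and 3.01 CPM in the wildtypes (log2 fold change 3.30, standard error 0.20, adjusted p = 3.72e-06). The most abundant of the family, snai1b, was at 171, 204 and 192 CPM against 55.9, 47.6 and 48.6 CPM (1.90, standard error 0.14, adjusted p = 1.49e-05). For snai3 and snai1b the mutants were tightly grouped and far from the wildtypes. The third, snai1a, was at 35.5, 36.4 and 53.9 CPM against 17.1, 17.6 and 15 CPM (1.34, standard error 0.19). All 5 kept their call whichever of the 11 libraries was left out. Not called were GFI1B (log2 fold change 1.2, adjusted p = 0.117) and snai2 (0.59, adjusted p = 0.0548), a further Snail family member whose mutant levels of 135, 101 and 143 CPM lay above the wildtype 69.4, 94.8 and 88.1 CPM. Lsd1's own complex partners, such as the CoREST proteins and histone deacetylases, counted together with kdm1a itself, gave 1 higher and no lower gene of 25 (4%, median 0.18). They gave 2 and 1 without 36433 wildtype replicate 1. The higher gene was RCOR3 (0.82, adjusted p = 0.049). Its call was lost in 10 of 11 fits without 1 library (adjusted p up to 0.166), all but that without 36433 wildtype replicate 1.

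**Figure D2:**
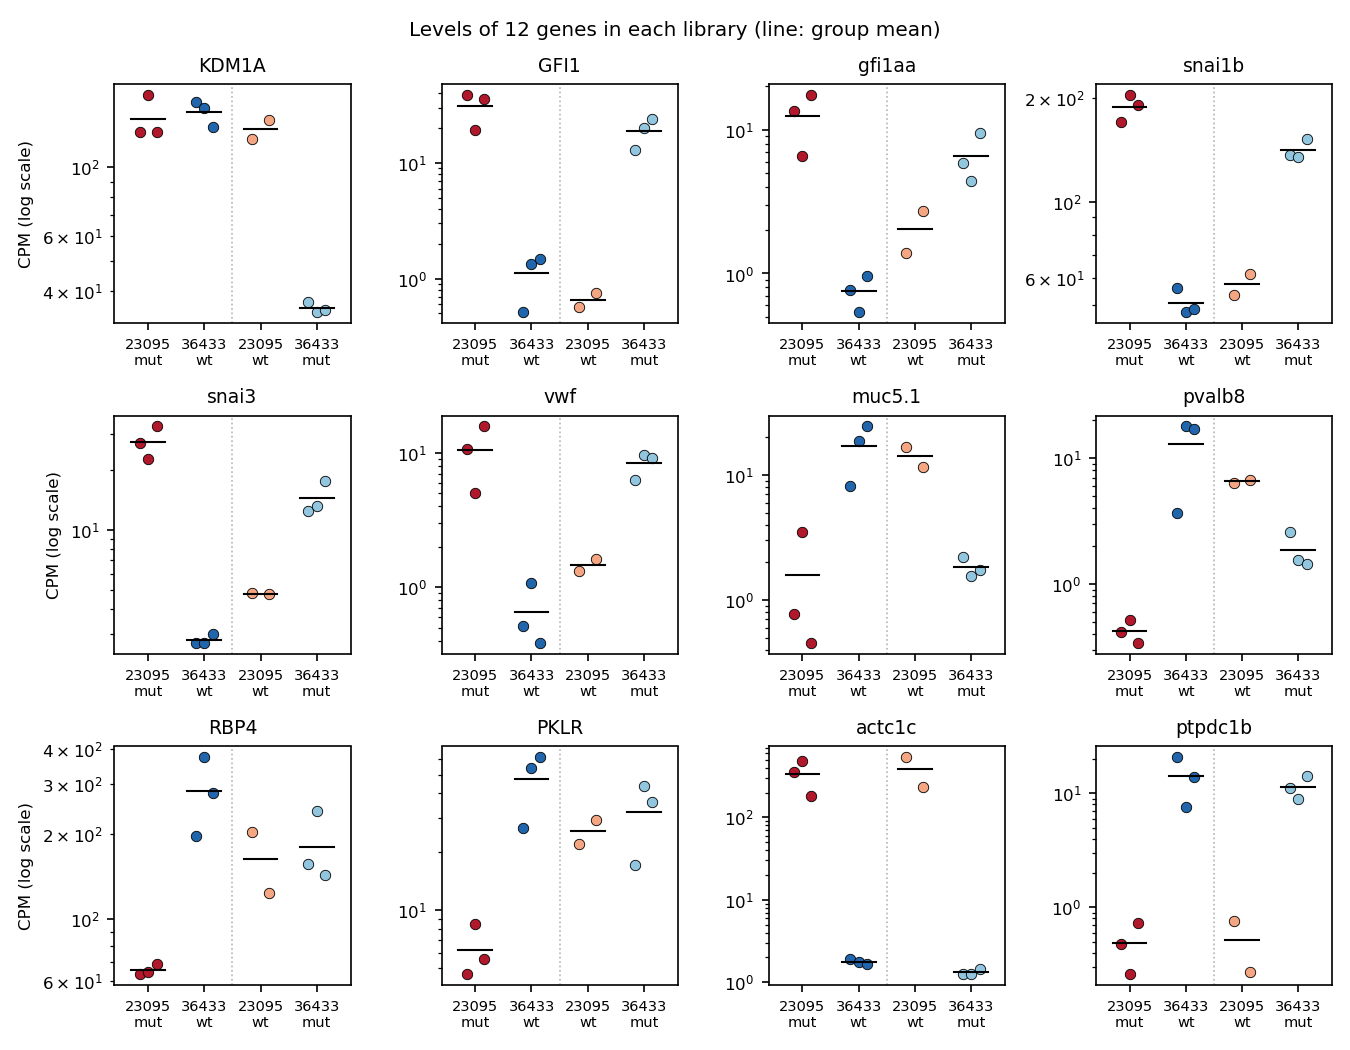
Level of 12 genes in each library, in CPM on a log scale; each point is 1 library, the line is the mean of its group, and groups right of the dotted line are those of the opposite cross. GFI1, gfi1aa, snai1b, snai3 and vwf are high in both mutant groups, while actc1c and ptpdc1b separate the lines whatever the genotype.

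Of 19 tested genes of blood stem and progenitor cells, 7 were higher and 1 lower (42.1%, median 0.79). Without 36433 wildtype replicate 2 or 3, 4 were higher. RUNX1, the transcription factor that starts definitive blood formation, was at 2.56, 2.33 and 1.75 CPM in the mutants, against 0.513, 0.471 and 0.704 CPM in the wildtypes (log2 fold change 1.95, standard error 0.37, adjusted p = 0.0111). LMO2, a bridging factor of blood and endothelial regulators, was at 29.8, 29.4 and 44.0 CPM against 15, 17.5 and 12.2 CPM (1.21, standard error 0.23, adjusted p = 0.0109). IKZF1, a lymphoid regulator, was at 8.95, 8.55 and 13.3 CPM against 4.04, 3.56 and 2.18 CPM (1.66, standard error 0.41, adjusted p = 0.033). These 3 genes did not overlap between the groups, but the call of RUNX1 was lost without 36433 wildtype replicate 2 (adjusted p = 0.0538) and that of LMO2 without replicate 3 (0.0509). That of IKZF1 was lost in 4 fits, without 23095 mutant replicate 4, 36433 mutant replicate 1, or 36433 wildtype replicate 2 or 3 (up to 0.129).

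The lower member was spi1a, which encodes a PU.1 factor of myeloid cells. It was at 0, 0 and 0.113 CPM in the mutants, against 0.705, 1.61 and 1.09 CPM in the wildtypes, so that 2 mutant libraries held no read of it (adjusted p = 0.0109). The remaining higher members were the ETS factors ERG (1.80, standard error 0.25), FLI1 (1.06, standard error 0.15), fli1rs (1.1, standard error 0.18) and etsrp (0.79, standard error 0.20), which endothelial cells also express. The call of etsrp was lost in 9 of 11 fits without 1 library, all but those without 23095 mutant replicate 1 or 2 (adjusted p up to 0.118), and the other 3 kept theirs.

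Of 33 tested endothelial genes, 15 were higher and 1 lower (48.5%, median 0.56). The list shares fli1a, etv2 and tal1 with that of blood stem and progenitor cells, so that the shares of these lists are not separate results. Higher members numbered 9 without 36433 wildtype replicate 2 or 3 and 14 without replicate 1. The clotting factor vwf was at 10.6, 5.05 and 15.8 CPM in the mutants, against 0.513, 1.08 and 0.384 CPM in the wildtypes (log2 fold change 4.01, standard error 0.45, adjusted p = 0.000706). The angiopoietin receptor tek was at 24.1, 43.6 and 28.9 CPM against 10.4, 9.35 and 8.19 CPM (1.78, standard error 0.28, adjusted p = 0.00519). Both were higher in every mutant library than in any wildtype library. Of the other receptors and regulators of vessels, sox18 (1.46), clec14a (1.12), rasip1 (1.09), KDR (1.01) and TIE1 (0.96) were higher as well, with adjusted p-values from 0.00606 to 0.00921. The more abundant junction gene cdh5, VE-cadherin, differed less, at 132, 117 and 166 CPM against 77.7, 77.4 and 92.7 CPM (0.74, standard error 0.16, adjusted p = 0.0171), and its call was lost without 23095 mutant replicate 4 or 36433 wildtype replicate 2 (up to 0.0789). The member that was lower was plvapb, a protein of the diaphragms of vessel pores, at 13.7, 20.9 and 13.7 CPM against 25.1, 28.4 and 38.6 CPM (-0.95, standard error 0.21, adjusted p = 0.0198). Its call was lost in 4 fits, without 23095 mutant replicate 1 or 4 or 36433 wildtype replicate 2 or 3 (up to 0.0857). The summed level of the endothelial list was 1560, 1620 and 1930 CPM in the mutants, against 1190, 1150 and 1240 CPM in the wildtypes. In pooled tissue, a different number of cells of a type and a different amount of RNA in each cell cannot be told apart, here and in the lists below.

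Several called genes of mature leukocytes were near the limit of detection in the mutants. Of 16 macrophage genes 5 were lower and none higher (31.2%, median -1.09). Of 14 genes shared by leukocytes 4 were lower and 1 higher (35.7%, median -0.90). Of 10 neutrophil genes 2 were lower and 1 higher (30%, median -0.45). Without 36433 wildtype replicate 3 the macrophage list had 3 lower members, and without replicate 1 it had 7. The macrophage marker MFAP4 has 5 identifiers with the same symbol, whose reads can be shared, and 3 of them were called. One (ENSDARG00000090783) was at 0.775, 0.13 and 0.282 CPM in the mutants, against 1.99, 4.24 and 4.48 CPM in the wildtypes (-3.00, standard error 0.57, adjusted p = 0.0109). Another (ENSDARG00000088745) had reads in 1 mutant library only, at 0.119 CPM, against 1.48, 1.95 and 3.39 CPM (adjusted p = 0.00328). The pore-forming MPEG1 (ENSDARG00000055290) was likewise at 0.119, 0 and 0 CPM against 1.73, 1.34 and 2.3 CPM (adjusted p = 0.0184; up to 0.0595 without 23095 mutant replicate 4 or 36433 wildtype replicate 3), and the chemokine receptor cxcr3.2 at 0.0596, 0 and 0 CPM against 0.641, 0.672 and 1.47 CPM (adjusted p = 0.0115). In these markers, taken from the called genes, the wildtype libraries lay above all mutant libraries, 36433 wildtype replicate 1 included. The summed levels of the whole lists placed that replicate otherwise. Macrophage genes were at 1520 CPM in it, 2870 and 2680 CPM in replicates 2 and 3, and 909 to 1540 CPM in the mutants. The macrophage markers printed above, each at 4.48 CPM or less, make up little of this sum. The list also names apoeb, which stands in the yolk and liver list too, so that the sum is no measure of macrophages alone. For shared leukocyte genes the values were 145, 294 and 316 CPM against 114 to 183 CPM. For neutrophil genes they were 72.8, 136 and 145 CPM against 79.7 to 97 CPM.

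Among the shared leukocyte genes, the actin bundler LCP1 was at 1.67, 3.5 and 2.43 CPM in the mutants, against 7.57, 7.26 and 9.66 CPM in the wildtypes (-1.74, standard error 0.34, adjusted p = 0.0124; 0.0509 without 36433 wildtype replicate 3). The Fc receptor chain fcer1gl was at 0.0596, 0.13 and 0.113 CPM against 0.641, 0.942 and 1.79 CPM (-3.45, standard error 0.65, adjusted p = 0.0109), a fold change that rests on 4 reads in the mutants. The phospholipase PLCG2 was the higher member, at 15.7, 11.8 and 15.2 CPM against 6.22, 6.05 and 7.68 CPM (1.11, standard error 0.19, adjusted p = 0.00679). CORO1A (-1.52) and ARPC1B (-1.01), which organise actin, were lower, but lost their calls in 4 and 5 of 11 fits, among them those without 23095 mutant replicate 2 or 4 or 36433 wildtype replicate 2 or 3 (adjusted p up to 0.126 and 0.139); ARPC1B also lost its call without 36433 mutant replicate 3. The count of 4 lower members was 2 without 23095 mutant replicate 2 or 36433 wildtype replicate 2, 1 without replicate 3 and 6 without replicate 1.

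The neutrophil list holds a receptor for granulocyte growth factor, CSF3R, that was higher, at 10.5, 6.87 and 11.5 CPM against 2.56, 2.02 and 4.35 CPM (1.70, standard error 0.31, adjusted p = 0.00992). The 2 lower members were enzymes of mature cells. The lysozyme lyz was at 0.0596, 0.13 and 0 CPM against 0.321, 2.42 and 7.04 CPM (adjusted p = 0.0189; up to 0.0712 without 23095 mutant replicate 4 or 36433 wildtype replicate 3). The protease npsn was at 0.775, 0.777 and 1.02 CPM against 0.962, 3.9 and 11.1 CPM (-2.60, standard error 0.67), groups that overlapped, and it lost its call in 9 of 11 fits, all but those without 36433 mutant replicate 3 or 36433 wildtype replicate 1 (adjusted p up to 0.175). The count of 2 was 0 without 23095 mutant replicate 4 or 36433 wildtype replicate 3, 1 without the other mutants or 36433 wildtype replicate 2, and 4 without replicate 1. The granulocyte peroxidase EPX is not among the list members counted here and was named after its values were seen. Members were matched by symbol, so that a gene the list names otherwise, such as its peroxidase mpx, can be missing from these counts. It was at 0.119, 0.259 and 0.339 CPM against 4.36, 10.7 and 15.4 CPM (-5.37, standard error 0.55, adjusted p = 0.000388), and it kept its call in all 11 fits.

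Of 21 erythroid genes 6 were lower and none higher (28.6%, median -0.78). The summed level of the list was 1570, 2480 and 1590 CPM in the mutants, against 2550, 2560 and 1680 CPM in the wildtypes. In this sum the groups overlapped. Lower members numbered 2 without 36433 wildtype replicate 2 and 3 without 23095 mutant replicate 4. The red cell ammonium channel RHAG was at 24.2, 19.0 and 4.97 CPM in the mutants, against 97.2, 64.7 and 53.8 CPM in the wildtypes (-2.17, standard error 0.43, adjusted p = 0.0122). The anion exchanger SLC4A1, also a member of the ionocyte list, was at 8.89, 10.1 and 7.39 CPM against 19.9, 26.4 and 24.4 CPM (-1.43, standard error 0.25, adjusted p = 0.00821). Neither gene overlapped between the groups, and both kept their calls in all 11 fits. The others were tspo (-1.12), the globin hbae1.1 (-1.40), hemgn (-1.59) and blvrb (-0.97), whose calls were lost in 1, 2, 6 and 9 fits, each time including that without 36433 wildtype replicate 2 (highest adjusted p 0.0607, 0.0868, 0.165 and 0.163). The remaining fits were without 23095 mutant replicate 4 for the last 3, and for hemgn also without 23095 mutant replicate 1 or any 36433 mutant. For blvrb they were all but those without 36433 wildtype replicate 1 or 36433 mutant replicate 2.

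Of 11 tested mucous cell genes 8 were lower and none higher (72.7%, median -1.69). The gel-forming mucin muc5.1 was at 0.775, 3.5 and 0.452 CPM in the mutants, against 8.14, 18.5 and 24.4 CPM in the wildtypes (-3.71, standard error 0.57, adjusted p = 0.00519). The parvalbumin gene pvalb8 was at 0.417, 0.518 and 0.339 CPM against 3.65, 17.9 and 17.0 CPM (-4.95, standard error 0.59, adjusted p = 0.00101). AGR2, a disulfide isomerase needed for folding mucins, was at 8.11, 11.7 and 12 CPM against 18.7, 46.8 and 59.0 CPM (-1.98, standard error 0.34, adjusted p = 0.00711). For these 3 genes 36433 wildtype replicate 1 was the lowest wildtype and still lay above all mutants, and they kept their calls in all 11 fits. The sialyltransferase st6galnac1.1 (-2.72) was called except without 23095 mutant replicate 4 or 36433 wildtype replicate 3 (up to 0.0672). The calls of muc5.2, FER1L6, foxa3 and SPDEF were lost in 4 to 9 fits, so that 5 members were lower without 23095 mutant replicate 1 or 2, 4 without 23095 mutant replicate 4 or 36433 wildtype replicate 2, and 3 without 36433 wildtype replicate 3.

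Genes of the epidermis and its outer layer, the periderm, gave lower members in a number that depended on the 36433 wildtypes in the fit. Of 44 tested, 14 were lower and none higher (31.8%, median -0.74). Without 36433 wildtype replicate 1, 32 were lower (median -0.95), without 36433 wildtype replicate 2 or 3 none was (medians -0.60 and -0.68), and the count was 9, 4 and 4 without 23095 mutant replicates 1, 2 and 4. With only the 6 libraries of the comparison in the fit it was 0 (median -0.75). Periplakin (PPL), a linker of keratin filaments, was at 743, 622 and 704 CPM in the mutants, against 898, 1507 and 1316 CPM in the wildtypes (-0.85, standard error 0.18, adjusted p = 0.0201; up to 0.0921 without 23095 mutant replicate 2 or 36433 wildtype replicate 2 or 3). The keratin krt97 was at 117, 118 and 120 CPM against 148, 397 and 404 CPM (-1.42, standard error 0.31, adjusted p = 0.0201; up to 0.0881 without 23095 mutant replicate 2 or 4 or 36433 wildtype replicate 2 or 3). The protease inhibitor spint1a was at 54.4, 50.3 and 52.4 CPM against 65.2, 111 and 99.4 CPM (-0.81, standard error 0.18, adjusted p = 0.0198; up to 0.0921 without 36433 wildtype replicate 2 or 3). In each of these genes the first wildtype was close to the mutants and the other wildtypes were far above them.

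**Figure D3:**
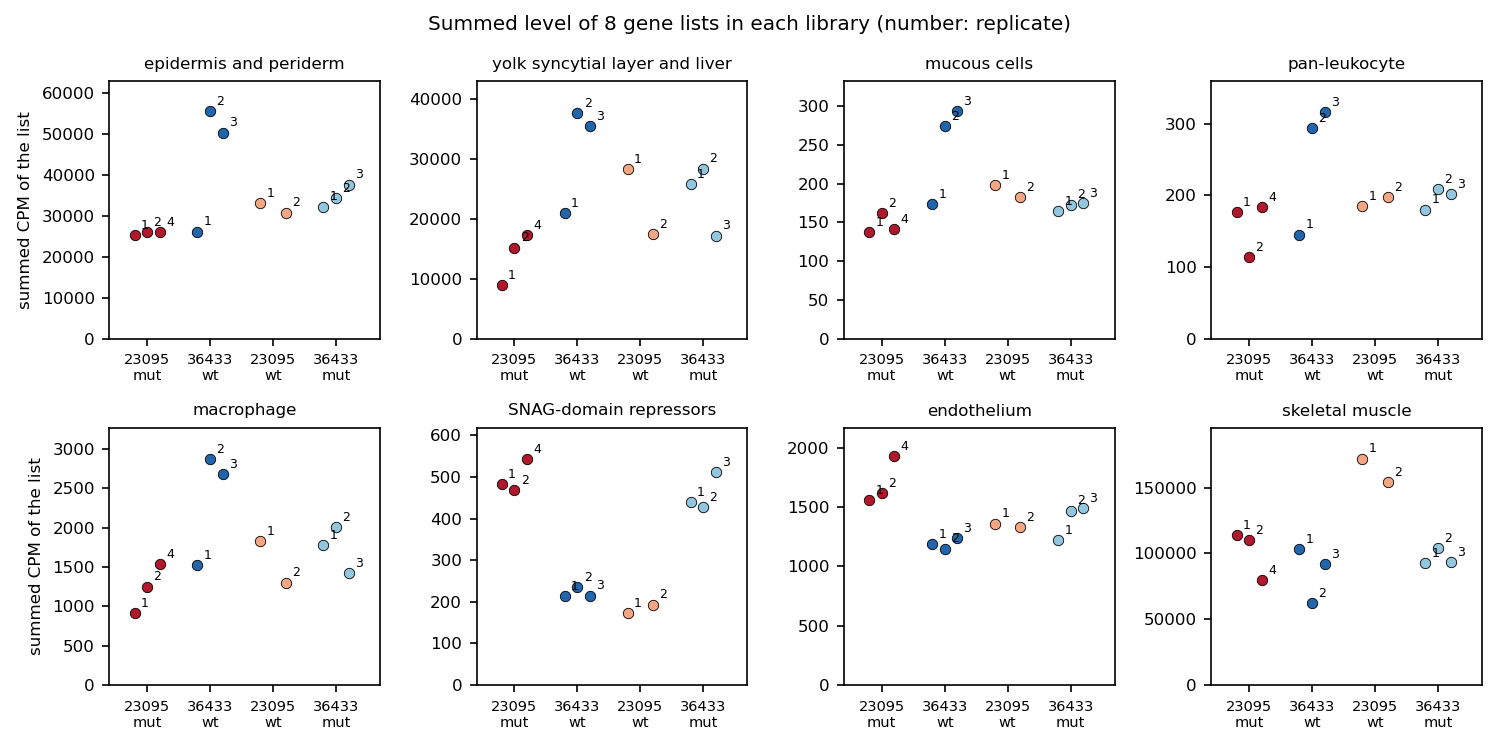
Summed level of 8 gene lists in each library, in CPM on axes that start at 0; each point is 1 library with its replicate number. In the epidermis list 36433 wildtype replicate 1 (26200 CPM) lies with the 23095 mutants and apart from replicates 2 and 3 (55700 and 50400 CPM), while in the lists of SNAG-domain repressors and endothelium it lies with its own group.

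Ionocytes, the salt-transporting cells of the skin, gave 8 lower genes of 25 and none higher (32%, median -0.72). Lower members numbered 12 without 36433 wildtype replicate 1 and 4 without replicate 2 or 3. The sodium pump subunit ATP1B1 was at 61.3, 43.9 and 42.1 CPM in the mutants, against 80.5, 132 and 126 CPM in the wildtypes (-1.2, standard error 0.21, adjusted p = 0.00821). The adhesion molecule ceacam1 was at 11.6, 5.18 and 3.1 CPM against 25.9, 35.7 and 49.6 CPM (-2.46, standard error 0.42, adjusted p = 0.00684). The carbonic anhydrase ca2 was at 34.6, 31.7 and 35.6 CPM against 54.0, 61.7 and 78.9 CPM (-0.93, standard error 0.17, adjusted p = 0.0101). None of these 3 overlapped between the groups, and all kept their calls in the 11 fits.

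Of 35 fin fold genes, 6 were lower and none higher (17.1%, median -0.17). Lower members numbered 1 without 36433 wildtype replicate 2 or 3, 2 without 23095 mutant replicate 4 and 3 without 23095 mutant replicate 2. Without 36433 wildtype replicate 1, 10 were lower and 1 was higher. The homeobox gene msx3 was at 25.2, 18.9 and 30.1 CPM in the mutants, against 43.9, 45.2 and 43.8 CPM in the wildtypes (-0.83, standard error 0.16, adjusted p = 0.0121), a call that held in all 11 fits without 1 library but not with only the 6 libraries compared (adjusted p = 0.0628). The call of DLX5 (-1.22) was lost without 36433 wildtype replicate 2 or 3 (up to 0.0689), and that of the fibre protein and1 (-2.46) also without 23095 mutant replicate 2 or 4 (up to 0.127). Hatching gland genes gave 1 higher and 3 lower of 8 (50%, median -0.43), and the lower ones include AGR2, also a member of the mucous cell list. Without 23095 mutant replicate 4 or 36433 wildtype replicate 2, 1 was lower. The gene amy2al1 was higher, at 2.8, 3.63 and 5.14 CPM against 0.513, 0.672 and 0.256 CPM (2.99, standard error 0.50, adjusted p = 0.00661).

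The yolk syncytial layer and liver supply lipoproteins and plasma proteins. Of 36 tested genes of these tissues 15 were lower and none higher (41.7%, median -1.04). Lower members numbered 30 without 36433 wildtype replicate 1 and 7 without replicate 2 or 3. The retinol carrier RBP4 was at 63.6, 64.5 and 68.9 CPM in the mutants, against 197, 374 and 280 CPM in the wildtypes (-2.11, standard error 0.27, adjusted p = 0.00146). The fibrinogen chain fga was at 33.9, 42.2 and 39.9 CPM against 81.5, 127 and 107 CPM (-1.45, standard error 0.20, adjusted p = 0.00328). The lipoprotein component apoc2 was at 18.5, 13.2 and 17.3 CPM against 36.0, 79.8 and 102 CPM (-2.14, standard error 0.33, adjusted p = 0.00499). All 3 kept their calls in the 11 fits, and the mutants were closely grouped in each. The most abundant of the list, the apolipoprotein apobb.1, was at 4189, 7690 and 8655 CPM against 11570, 19530 and 18510 CPM (-1.27, standard error 0.32, adjusted p = 0.0354), and its call was lost in 5 fits, without 23095 mutant replicate 1 or 2, 36433 mutant replicate 1, or 36433 wildtype replicate 2 or 3 (up to 0.125). Outside the list, the pyruvate kinase PKLR of liver and red cells was at 4.65, 8.42 and 5.59 CPM against 26.6, 54.1 and 61.4 CPM (-2.97, standard error 0.39, adjusted p = 0.00188), and that call held in all 11 fits. The summed level of the list was 8900, 15200 and 17300 CPM in the mutants, against 21000, 37600 and 35500 CPM in the wildtypes, so that 36433 wildtype replicate 1 lay nearer to the highest mutant than to the other wildtypes. Whether yolk tissue taken along with the tails contributed was not tested.

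Of 22 melanophore genes 4 were lower and 1 higher (22.7%, median -0.92). Of 25 genes of iridophores and xanthophores 4 were lower and none higher (16%, median -0.64). In melanophores the matrix gene pmela was at 19.6, 13.1 and 4.63 CPM in the mutants, against 63.0, 31.5 and 50.5 CPM in the wildtypes (-1.97, standard error 0.41, adjusted p = 0.0166; 0.0506 without 36433 wildtype replicate 3). TYRP1 (ENSDARG00000056151, 1 of 2 identifiers), an enzyme of melanin synthesis, was at 8.05, 4.92 and 1.02 CPM against 37.9, 15.5 and 34.3 CPM (-2.66, standard error 0.58, adjusted p = 0.0203; up to 0.0647 without 23095 mutant replicate 2 or 36433 wildtype replicate 3). In iridophores pnp4a, an enzyme of purine metabolism, was at 1.85, 0.777 and 0.903 CPM against 4.87, 6.79 and 10.3 CPM (-2.57, standard error 0.36, adjusted p = 0.00309), a call kept in all 11 fits. Within each of these genes the groups did not overlap, and mutant replicate 1 was the highest mutant. The counts of lower members were 2 and 1 without 23095 mutant replicate 2 for melanophores and for iridophores and xanthophores, 1 and 1 without 36433 wildtype replicate 3, 3 and 1 without 23095 mutant replicate 4 or 36433 wildtype replicate 2, and 6 and 11 without replicate 1.

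Neural crest, the source of pigment cells, gave 3 higher and 1 lower gene of 26 (15.4%, median -0.05). Besides snai1b, the neuregulin receptor erbb3b was higher, at 28.6, 28.5 and 28.2 CPM against 16.9, 17.6 and 11.3 CPM (0.90, standard error 0.17, adjusted p = 0.0109), and kept its call in all 11 fits without 1 library but not with only the 6 libraries compared (adjusted p = 0.0617). The epidermal and crest factor TFAP2A was lower, at 56.5, 51.0 and 56.3 CPM against 79.0, 97.8 and 84.7 CPM (-0.67, standard error 0.13, adjusted p = 0.013; 0.0645 without 36433 wildtype replicate 2). FOXD3 (0.75) was the third to be higher and lost its call in 7 fits (adjusted p up to 0.148), keeping it without 23095 mutant replicate 1, 23095 wildtype replicate 1, 36433 mutant replicate 2 and 36433 wildtype replicate 1. The counts of 3 and 1 became 2 and 0 without 36433 wildtype replicate 2, 2 and 2 without 23095 mutant replicate 4, 3 and 2 without 23095 mutant replicate 1, and 3 and 5 without 36433 wildtype replicate 1.

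Of 67 skeletal muscle genes 3 were higher and 4 lower (median 0.02), together 10.4% of the list against 6.71% of all genes, and the summed level of the list ranged from 79500 to 114000 CPM in the mutants and from 62000 to 103000 CPM in the wildtypes. The transcription factors MEF2D (0.91, adjusted p = 0.029) and MEF2C (0.85, adjusted p = 0.0419) and the Z-disc protein actn2b (0.97, adjusted p = 0.0367) were higher, and the calcium binders pvalb1 and CASQ1 (2 identifiers) and the actin-binding XIRP2 were lower, from -1.44 to -2.57 with adjusted p from 0.0405 to 0.048. These 7 lost their calls in 4 to 9 of the 11 fits (adjusted p up to 0.197), and all of them without 36433 wildtype replicate 3; without replicate 1, 10 muscle genes were higher and 6 lower. No gene of 25 posterior hox genes was called (median 0.05). Of 44 tailbud and presomitic mesoderm genes 1 was (2.27%), the signal BMP4, lower at -0.69 (adjusted p = 0.0434). That call was lost in 9 fits (up to 0.172) and kept without 23095 mutant replicate 1 and 36433 wildtype replicate 1. Without the latter library 2 hox genes were lower, and 1 tailbud gene was higher and 2 were lower. None of the hox genes had an unadjusted p under 0.05 in edgeR's test either, and DESeq2 called none; the lowest adjusted p was that of HOXB13 (0.208), at 5.96, 8.94 and 6.38 CPM against 6.48, 11.2 and 14.8 CPM.

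Notochord and floor plate had 1 higher gene of 27 (3.7%), the matrix signal CCN2 (0.81, adjusted p = 0.0229). Its adjusted p was up to 0.102 without 23095 mutant replicate 1 or 2 or 36433 wildtype replicate 2 or 3. Of 54 neuronal genes 1 was higher and 1 lower (3.7%, median -0.15). The higher was the homeobox gene en1b (1.13, adjusted p = 0.0122, and 0.062 without 36433 wildtype replicate 2). The lower was the proneural ascl1a (-1.29, adjusted p = 0.033). Its adjusted p was up to 0.0932 in 4 fits without 23095 mutant replicate 2 or 4 or 36433 wildtype replicate 2 or 3. Of 13 genes of head structures 1 was called (7.69%). This homeobox gene, EN2, was higher, at 12.5, 15.8 and 10.4 CPM against 4.23, 4.78 and 4.61 CPM (1.5, standard error 0.26, adjusted p = 0.00744), which held in all 11 fits. In pooled tails, membership of a list does not show which cells expressed en1b or EN2. Cilia gave 1 higher of 35 (odad1, 2.86%, median 0.39), and 7 without 36433 wildtype replicate 1. No gene was called by edgeR among 24 of the pronephros and cloaca (median -0.06), 8 of the heart (median -0.58) and 13 of germ cells (median 0.14). At an unadjusted p under 0.05 there were 1, 4 and 0, and DESeq2 called 1, 0 and 0. The fit without 36433 wildtype replicate 1 called 3356 of 20782 genes, against 1401 of 20886 in the main fit. In it the notochord and floor plate had 3 higher and 2 lower, and neuronal genes 2 and 2. The pronephros and cloaca had 1 and 1, and the heart had 2 lower.

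Among genes of cell state, 2 of 27 genes of apoptosis and growth arrest were higher and none lower (7.41%, against 6.71% of all genes, median 0.21). The ubiquitin ligase gene mdm2 was at 87.2, 79.1 and 72.3 CPM in the mutants, against 27.4, 27.0 and 29.0 CPM in the wildtypes (1.52, standard error 0.17, adjusted p = 0.000779). The death gene bbc3 (Puma) was at 12.5, 6.48 and 5.25 CPM against 1.48, 2.62 and 1.86 CPM (2.03, standard error 0.36, adjusted p = 0.00869). Both kept their calls in all 11 fits. Without 23095 mutant replicate 2 the list had 5 higher, and without 36433 wildtype replicate 1 it had 2 higher and 1 lower. In the 23095 wildtypes mdm2 was at 92 and 57.5 CPM, and in the 36433 mutants at 35.5, 37.6 and 30.4 CPM, so that its level went with the line (log2 fold change -1.11 in the opposite cross described below, adjusted p = 0.0183).

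Cell cycle and DNA replication genes gave 2 lower of 53 (ccnb3 and CDC20, 3.77%, median -0.23). None was lower without 36433 wildtype replicate 2 or 3 or 23095 mutant replicate 1 or 4. Lower members numbered 4 without 23095 mutant replicate 2 and 10 without 36433 wildtype replicate 1. None of 39 heat shock and stress genes (median 0.09), 71 ribosomal protein genes (median -0.26) and 13 mitochondrial genome transcripts (median -0.47) was called by edgeR. Their counts at an unadjusted p under 0.05 were 10, 10 and 7, and DESeq2 called 3, 2 and 2. Without 36433 wildtype replicate 1, 26 ribosomal protein genes and 4 mitochondrial transcripts were lower, and of the heat shock genes 1 was higher and 1 lower. The summed level of the ribosomal protein list was 47500 CPM in this replicate, 68900 and 69300 CPM in replicates 2 and 3, and 50300 to 53700 CPM in the mutants. Of 22 polymorphic immune genes 2 were higher and none lower (9.09%, median 0.02), and 1 was lower without 36433 wildtype replicate 1. The peptide transporter TAP1 was at 1.31, 2.46 and 2.43 CPM against 0.385, 0.471 and 0.448 CPM (2.21, standard error 0.41, adjusted p = 0.00992). The other higher gene was trim25 (1.12, adjusted p = 0.0119, and 0.0534 without 36433 wildtype replicate 2).

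With only the 6 libraries of the comparison in the fit, 372 of 19487 tested genes were called, and the counts here stand against that total. The SNAG-domain repressors again had 5 higher members of 13 tested, blood stem and progenitor cells 6 higher and 1 lower of 18, and endothelium 9 higher of 33. Macrophages then had 5 lower members of 13, yolk and liver 8 of 35, and ionocytes 5 of 25. Mucous cells had 4 lower of 10, erythroid cells 3 of 21 and the shared leukocyte genes 2 of 13. Melanophores had 1 lower of 21, iridophores and xanthophores 1 of 25 and the hatching gland 1 of 8. The neutrophil, fin fold, muscle, cell cycle and neural crest lists had no lower member. Neural crest had 1 higher member and muscle had no higher one.

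**Figure D4:**
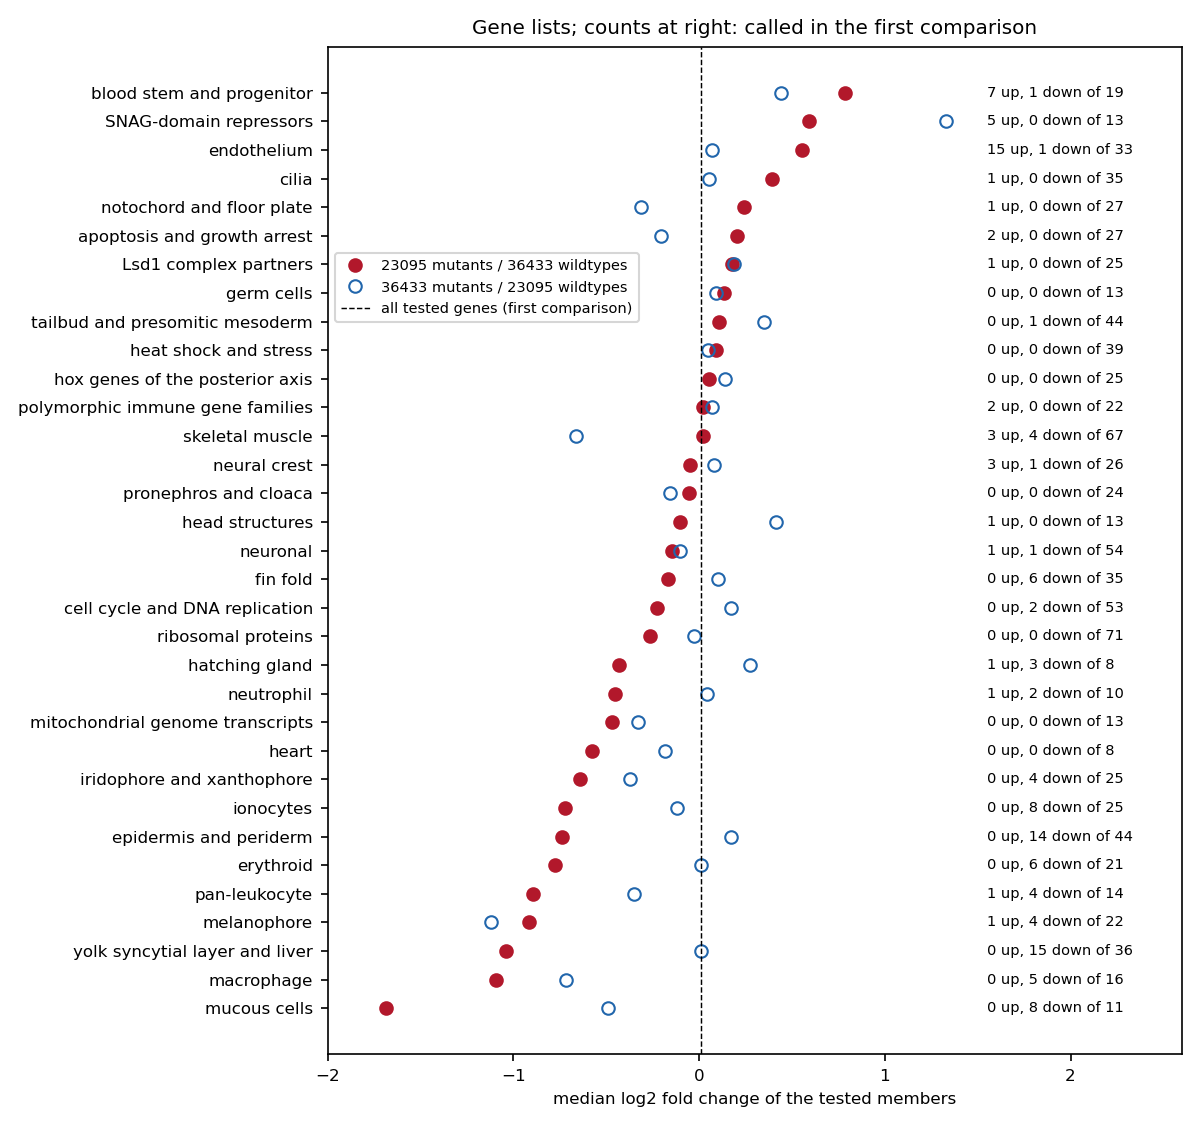
Median log2 fold change of the tested members of each of 33 gene lists (horizontal axis); filled points are 23095 mutants over 36433 wildtypes, open points the opposite cross, and the dashed line is the median of all tested genes. The numbers at the right count members called higher and lower; lists of blood progenitors, SNAG-domain repressors and endothelium lie highest and those of mucous cells, macrophages and yolk lowest in the first comparison.

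The most abundant genes called showed mostly smaller differences. Among those lower were, besides apobb.1, the apolipoprotein APOB (-1.26), PPL, the matrix protein POSTN (-0.87) and the non-muscle myosin MYH9 (-0.77), and among those higher the muscle filamin FLNC (0.91), the matrix protein EFEMP2 (0.75) and the cytoskeletal linker macf1a (0.71), with adjusted p from 0.0201 to 0.0472. POSTN, MYH9, FLNC and EFEMP2 each have a second identifier with the same symbol that was not called. FLNC was at 1228, 2151 and 1658 CPM in the mutants, against 1265, 725 and 693 CPM in the wildtypes, so that its groups overlapped. Each of these lost its call in 3 to 9 of the 11 fits (adjusted p up to 0.182), always without 36433 wildtype replicate 2 or 3.

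The opposite cross, 36433 mutants against 23095 wildtypes, shares no library with the first, and the line difference enters it with the opposite sign. It had 183 called genes (0.876%), 84 higher and 99 lower (0.402% and 0.474%), a number that rests on 2 wildtype libraries. The number was 37 and 43 without the first and the second of them, and 45 to 50 without a 36433 mutant. It was 276 and 298 without 36433 wildtype replicate 1 and 23095 mutant replicate 4. With only the groups compared in the fit the opposite cross had 1357 calls and the first 372. Which cross had more calls thus depended on the libraries that shared the estimate of the spread. Over all 20886 genes, none of them an independent replicate, the log2 fold changes of the 2 crosses had a Pearson's r of -0.28, and over the 1401 called in the first it was -0.474. Of these 1401, 641 (45.8%) had the same direction in the opposite cross, against 48.8% of all genes. The list medians, which are descriptions, differed between the crosses: SNAG-domain repressors had a median log2 fold change of 0.59 in the first and 1.33 in the opposite cross, with 6 of 13 called higher in the latter. Melanophore genes had -0.92 and -1.12, macrophage genes -1.09 and -0.72, and mucous cell genes -1.69 and -0.49. Endothelial genes had 0.56 and 0.07, epidermal genes -0.74 and 0.17, yolk and liver genes -1.04 and 0.01, and erythroid genes -0.78 and 0.01. In all 91 genes were called in both, which is 6.5% of the calls of the first cross and 49.7% of those of the second. Of them 66 had opposite directions and 25 the same. With only the groups compared in each fit, 75 had opposite directions and 49 the same.

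The 25 genes with 1 direction in both crosses, 19 higher and 6 lower in mutants, included GFI1, snai3, snai1b, snai1a, vwf, SASH3, RASGRP2 and OAT on the higher side. GFI1 was at 12.8, 19.9 and 23.8 CPM in the 36433 mutants, against 0.568 and 0.746 CPM in the 23095 wildtypes (log2 fold change 4.83, standard error 0.48, adjusted p = 0.000404), close to the 4.81 of the first cross. SASH3, an adaptor of lymphocytes, was at 4.71, 4.79 and 9.54 CPM in the 23095 mutants, against 0.898, 1.08 and 1.47 CPM in the 36433 wildtypes (2.47, standard error 0.34, adjusted p = 0.00263). In the opposite cross it was at 5.86, 5.75 and 7.46 CPM against 0.568 and 0.678 CPM (3.33, standard error 0.43, adjusted p = 0.00294). The mitochondrial aminotransferase OAT differed by nearly equal amounts, 1.44 (standard error 0.16) and 1.42 (standard error 0.18), and the exchange factor RASGRP2 by 2.07 (standard error 0.39) and 2.88 (standard error 0.49). In each of these genes every mutant library of either line lay above every wildtype library of either line.

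The 6 lower in both included gfral, which encodes the receptor of the hormone GDF15, muc5.1 and CORO1A. The transcript of gfral was at 0.298, 0.13 and 0.564 CPM in the 23095 mutants, against 3.53, 13.4 and 7.87 CPM in the 36433 wildtypes (-4.45, standard error 0.56, adjusted p = 0.00146). In the opposite cross it was at 0.469, 0.313 and 0.434 CPM against 5.3 and 2.78 CPM (-3.31, standard error 0.59, adjusted p = 0.0234). Of the 25, 18 kept their call in the first cross in all 11 fits, and the number called in both ranged from 4 to 48 when 1 library was left out. It was lowest without 23095 wildtype replicate 1, 8 without replicate 2, 7 to 10 without a 36433 mutant, 38 without 23095 mutant replicate 2 and highest without 36433 wildtype replicate 1. Other genes with a call in the first cross only were gfi1aa (1.69 in the opposite cross, adjusted p = 0.107), pvalb8 (-1.82, adjusted p = 0.12) and tek (0.53, adjusted p = 0.493).

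**Figure D5:**
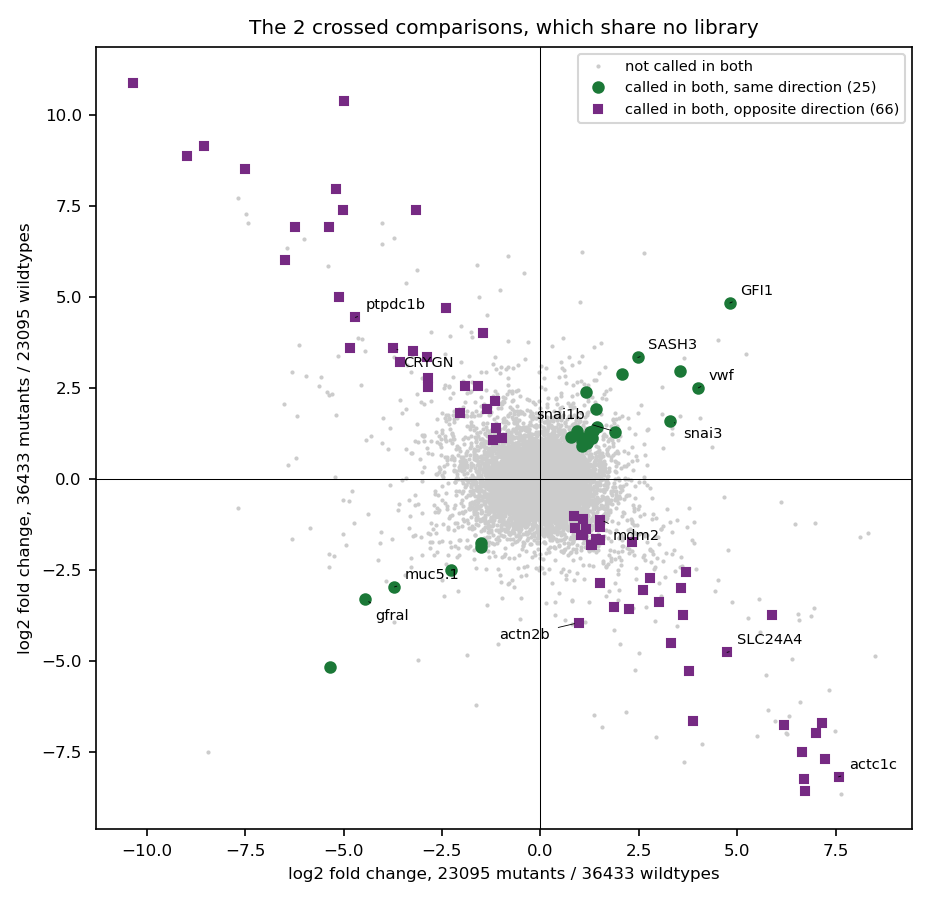
Log2 fold change of each tested gene in the first cross (horizontal axis, 23095 mutants over 36433 wildtypes) against the opposite cross (vertical axis, 36433 mutants over 23095 wildtypes). Green circles are the 25 genes called in both with the same direction, purple squares the 66 called in both with opposite directions, and grey points all others; the widest fitted values belong to genes with few or no reads in 1 group.

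In the 66 genes with opposite directions, 36 higher and 30 lower in the 23095 mutants, the same line was higher in both crosses. Opposite directions alone do not separate a line difference from a mutant effect in 1 line. The gene actn2b (0.97 in the first cross) had a mutant effect of 0.07 in line 23095 and -3.05 in line 36433. The 66 include the widest differences of the comparison. The cardiac-type actin gene actc1c was at 352, 488 and 181 CPM in the 23095 mutants, against 1.92, 1.75 and 1.66 CPM in the 36433 wildtypes (7.57, standard error 0.44, adjusted p = 2.66e-06). It was at 536 and 233 CPM in the 23095 wildtypes and at 1.25, 1.25 and 1.45 CPM in the 36433 mutants (-8.18 in the opposite cross, standard error 0.47). The exchanger gene SLC24A4 (ENSDARG00000067509, 1 of 2 identifiers), the 1 higher member of the melanophore list, was at 4.95, 5.18 and 2.82 CPM against 0.321, 0.0673 and 0.064 CPM (4.74, standard error 0.54), a fold change that rests on 7 reads in the wildtypes, with -4.76 in the opposite cross. The phosphatase gene ptpdc1b went the other way, at 0.477, 0.259 and 0.734 CPM against 20.7, 7.53 and 14.0 CPM (-4.70, standard error 0.46) and 4.44 in the opposite cross.

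Other wide differences of the first cross were those of the lipoxygenase gene alox5b.3 (3.55), the Ras-like gene rasl10a (2.64) and IGSF10 (-3.62), which kept their calls in all 11 fits. In both crosses csmd3a was higher in the first cross (3.57, standard error 0.47) and lower in the opposite one (-2.98, standard error 0.50), while the crystallin CRYGN (ENSDARG00000030411, 1 of 2 identifiers) was lower in the first (-3.74, standard error 0.63) and higher in the opposite one (3.6, standard error 0.67), with 5 reads in the 23095 mutants. The bitter taste receptor tas2r200.1 was at 1.25, 1.17 and 1.19 CPM in the 23095 mutants, and at 1.2 and 0.542 CPM in the 23095 wildtypes, with no read in any library of line 36433. The elastase gene ela2l had the same pattern, at 0.259 to 1.13 CPM in the 23095 mutants, up to 1.76 CPM in the 23095 wildtypes and 0 in every library of line 36433. The symbol Metazoa_SRP, the RNA of the signal recognition particle, stands for 68 identifiers whose reads can be shared; it had 19 higher and 4 lower of 61 tested, 6 of them opposite in both crosses, and is reported as uncertain. The number of genes opposite in both was 22 to 28 without a 23095 wildtype or a 36433 mutant library, 40 without 36433 wildtype replicate 2, and up to 93 in the other fits without 1 library.

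The difference of the mutant effect between the lines was called for 2 of the 20886 genes (0.00958%), KDM1A and actn2b. The kdm1a transcript was at 36.9, 34.1 and 34.8 CPM in the 36433 mutants against 162, 155 and 135 CPM in their wildtypes, and at 130, 170 and 130 CPM in the 23095 mutants against 124 and 142 CPM in theirs. The log2 effects of the mutation differed by 2.2 (standard error 0.22, adjusted p = 0.00407). For actn2b the levels were 3.9, 3.06 and 5.0 CPM in the 36433 mutants against 47.0, 28.5 and 23.2 CPM in their wildtypes, and 62.9, 78.0 and 52.9 CPM in the 23095 mutants against 67.5 and 55.3 CPM in theirs. The effects differed by 3.12 (standard error 0.40, adjusted p = 0.0286). Neither was called without 23095 wildtype replicate 1, and 1 of them without 23095 mutant replicate 2, 23095 wildtype replicate 2, 36433 wildtype replicate 2 or any 36433 mutant.

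The authors' deposited table of the same comparison held 2325 genes at an adjusted p under 0.05, 1082 higher and 1243 lower, with the adjusted p blank for 1397 genes. It shared 1395 of the 1401 calls made here, 99.6% of them and 60% of the calls in the authors' deposited table, all with the same direction. Over the genes called here the median ratio of the fold change in the authors' deposited table to that found here, both on the log2 scale, was 0.842. For the opposite cross the authors' deposited table held 667 calls, which included 182 of the 183 found here.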

How the data were processed

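Total RNA of tails was depleted of ribosomal RNA with a stranded kit and sequenced as paired 150-base reads, per the labels' protocols. The authors deposited raw read counts per gene of the 11 libraries; cutadapt 1.16, STAR 2.7.2c, DESeq2 1.22.2 and GRCz11 are named in the submitters' processing notes, and the sources used here do not name the counting tool. The deposited tables of the authors' comparisons hold log2 fold changes and p-values, raw and adjusted, copied only where named. The libraries held 8204459 to 17195875 counts.

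Counts were tested with edgeR 4.0.16 (R 4.3.3): filterByExpr (at least 10 counts, 15 in total), TMM scaling, means of the 4 groups over all 11 libraries (7 residual degrees of freedom), two-sided quasi-likelihood F-tests, and Benjamini-Hochberg adjustment over 20886 genes. Calls were made at an adjusted p under 0.05. CPM values use TMM-scaled library sizes. The procedure was tested on simulated data.

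Symbols came from the supplied name table, which pairs 21998 of 23617 identifiers with a symbol, many of them in human-style capitals; list members were matched by symbol, human-style symbol or RefSeq synonym. Where 1 symbol covers several identifiers, reads may be shared and the gene is uncertain. Genes were named by rule: kdm1a, the 12 largest changes per direction (mean log2 CPM of at least 1, groups not overlapping), for each list the 3 members of lowest p, up to 6 per direction called in both crosses with the same or with opposite direction, and the 5 most abundant called genes per direction. Further list members and genes given without being in that rule were named after their values were seen. The comparison, members and lists were chosen with earlier results of these data known. Alternatives were other scalings, filters, thresholds, DESeq2 1.42.0, a replicate block, fits on fewer groups and leaving out each library. Fold changes of genes with at most 3 reads in 1 group depend on the prior count and are not printed. No genome or sequence table was used here. A list member withheld for evaluation is not reported here.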

Additional observations from a re-analysis of the deposited data

Results flagged for a closer look

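The effect of the mutation, mutant over wildtype within a line, differed between the 2 lines for KDM1A and actn2b by an interaction test over all genes (quasi-likelihood test of edgeR, Benjamini-Hochberg adjustment). For KDM1A the log2 effects were 0.11 in line 23095 and -2.10 in line 36433, a difference of 2.2 (standard error 0.22, adjusted p = 0.00407). For actn2b they were 0.07 and -3.05, a difference of 3.12 (standard error 0.40, adjusted p = 0.0286).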

How the results depend on the processing

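The number of genes called between the 23095 mutants and the 36433 wildtypes, 1401, was within 1.5 times of itself with DESeq2 size factors (1395), library totals (1316), no filter (1366), a filter of 1 CPM in 3 libraries (1352), the newer quasi-likelihood fit (1571) and without the 23095 wildtypes (1062). Library totals moved the share of higher calls from 48.3% to 55.6% and the median log2 fold change of all genes from 0.013 to 0.068. The count was 2384 with DESeq2, 372 with only the 2 groups in the fit, 199 with a replicate block, 241 and 2788 at adjusted p under 0.01 and 0.1, and 378 to 3356 without 1 library. The opposite cross had 692 calls with DESeq2, 1357 with only its groups, and 37 to 298 without 1 library. Calls shared in the same direction numbered 97 with DESeq2, 45 with the newer fit, 49 with only the groups compared, 12 with the replicate block, and 4 to 48 without 1 library. Calls shared in opposite directions numbered 168, 31 with the block, and 22 to 93 without 1 library. Named genes with a different mutant effect numbered 4 with DESeq2, 0 with the block, and 0 to 2 without 1 library. The cause was not tested, except that the threshold, the block and the smaller fits change by construction. Same-numbered libraries of different groups correlated in their deviations from group means with r from -0.238 to 0.226, over 0.1 in 2 of 13 pairs. Those 2 were the 36433 mutant and wildtype libraries of replicate 1 (0.226) and replicate 2 (0.106), and those of replicate 3 were at -0.024. Whether same-numbered libraries of that line shared a clutch was not tested. Between the 2 groups compared, which are of different lines, r was -0.099 and -0.108, and the numbers were not taken to pair them. Libraries of unlike number in these groups had r from -0.096 to 0.223. The highest was that of 23095 mutant replicate 4 with 36433 wildtype replicate 2, so that values of that size also occurred between lines. With the block, 42 of the 66 genes that kept their call without any 1 library were called. Not called were, among others, AGR2 (adjusted p = 0.0608), apoc2 (0.0618), SLC4A1 (0.0718), ATP1B1 (0.0908) and ca2 (0.0935). List members called were 5 higher for SNAG-domain repressors, 5 for endothelium and 4 for blood progenitors. Lower were 3 for yolk, 2 for erythroid cells, 2 for mucous cells, 1 for macrophages and 1 for ionocytes. For epidermis, neutrophils and shared leukocyte genes 0 were lower. Among named genes and alternatives, 2286 results kept side and direction, 340 lost the call, 53 gained it and 1 reversed: emx3, not called, was at -0.46 and ranged from -0.75 to 0.04 without 1 library, the last without 36433 wildtype replicate 2. The depth limits calls under 1 CPM, where the median standard error was 0.62, against 0.17 over 100 CPM.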
